A study of Mus musculus with 24 samples.

Results

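Actb, B2m, Gapdh and Rpl19 are the 4 messenger RNA probes of a NanoString nCounter mouse panel that otherwise counts microRNAs (miRNAs). They were taken by name from the deposited value table and are 4 of its 626 rows, beside 566 mouse miRNA probes. The table describes RNA from serum exosomes, small vesicles that cells release into blood, of male C57BL/6N mice at 40 weeks, in 4 groups of 6 samples. Mice of the WD+CCl4 group, labelled HCC (hepatocellular carcinoma), ate a high-fat diet, drank water sweetened with fructose (23.1 g/L) plus glucose (18.9 g/L), and received carbon tetrachloride, a liver toxin, into the abdomen at 1 injection per week. ND+CCl4 mice, labelled cirrhosis, received the toxin on normal chow and tap water. WD+oil mice, labelled NASH (non-alcoholic steatohepatitis), had the high-fat diet and sugar water with corn oil in place of the toxin. ND+oil mice, labelled normal, had chow, tap water and corn oil. All 4 groups were therefore injected weekly, and all are of 1 sex and 1 strain. The labels give no tumour or fibrosis score for a sample, and nothing in them says that the 6 samples of a group came from separate animals, so the spread between them may be in part technical.

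Actb encodes beta-actin of the cytoskeleton, and B2m encodes beta-2-microglobulin, the light chain of the class I major histocompatibility complex on nucleated cells. Gapdh encodes a glycolytic enzyme and Rpl19 a protein of the large ribosomal subunit. Such transcripts are often used as housekeeping references for RNA from cells. Exosomes are known to carry fragments of messenger RNA beside small RNAs. In this kind of assay a messenger RNA is bound by its probe pair directly, whereas a mature miRNA is counted through a tag ligated to it, so that counts of the 2 classes do not compare molecules. The probes' own target sites were not used here, and Actb and Gapdh have processed pseudogenes, so related sequences bound by the same probe cannot be told apart.

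A deposited value was a whole digital count multiplied by 1 factor per sample, and the counts could be read back for 14571 of 14571 values above the table's lower bound of 1. The factor lay between 0.397 and 5.72. The recovered miRNA counts of a library summed to between 42478 and 1496818. In depth, replicate 1 of WD+CCl4 (1328912 counts) and replicate 1 of ND+CCl4 (1496818 counts) were followed by ND+CCl4 replicate 5 (1115402 counts). The first 2 of these stood apart from the other 22 libraries by their miRNA make-up. Their miR-122 values, a miRNA known to be abundant in hepatocytes, were 44112 and 60750, against 78.0 to 13358 in the others. Their miR-223 values, a miRNA of platelets and myeloid cells, were 2065 and 2167, against 6957 to 28186. Replicates 1 to 3 and replicates 4 to 6 also differed in depth, with median totals of 69551 and 254310 counts. In WD+oil and ND+oil no total of replicates 1 to 3 reached one of replicates 4 to 6. The labels name no batch.

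The 4 messenger RNA probes made up a small part of the counts of each library, counts at background included. The 4 probes together took 0.0436% of the messenger RNA and miRNA counts in WD+CCl4 replicate 1 and 0.0368% in ND+CCl4 replicate 1. In the other 22 libraries they took between 0.131% and 1.15%. In bulk vesicle RNA, fewer vesicles with a transcript and less of it per vesicle cannot be told apart.

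Each probe was set against the 8 negative control probes of the same sample, with the mean plus 2 SD of their counts as the detection limit. Actb was above the limit in 24 of 24 samples, and its count lay between 1.61 and 35.4 times that limit. B2m was above it in 23 of 24. The exception was WD+CCl4 replicate 1, with 36 counts against a limit of 36.8. Rpl19 was above it in 4 of 6 WD+CCl4 samples and 3 of 6 ND+CCl4 samples, and in 0 of 6 WD+oil and 0 of 6 ND+oil samples. Gapdh was above it in 2 of 24 samples, which were the 2 libraries that stood apart.

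**Figure D1:**
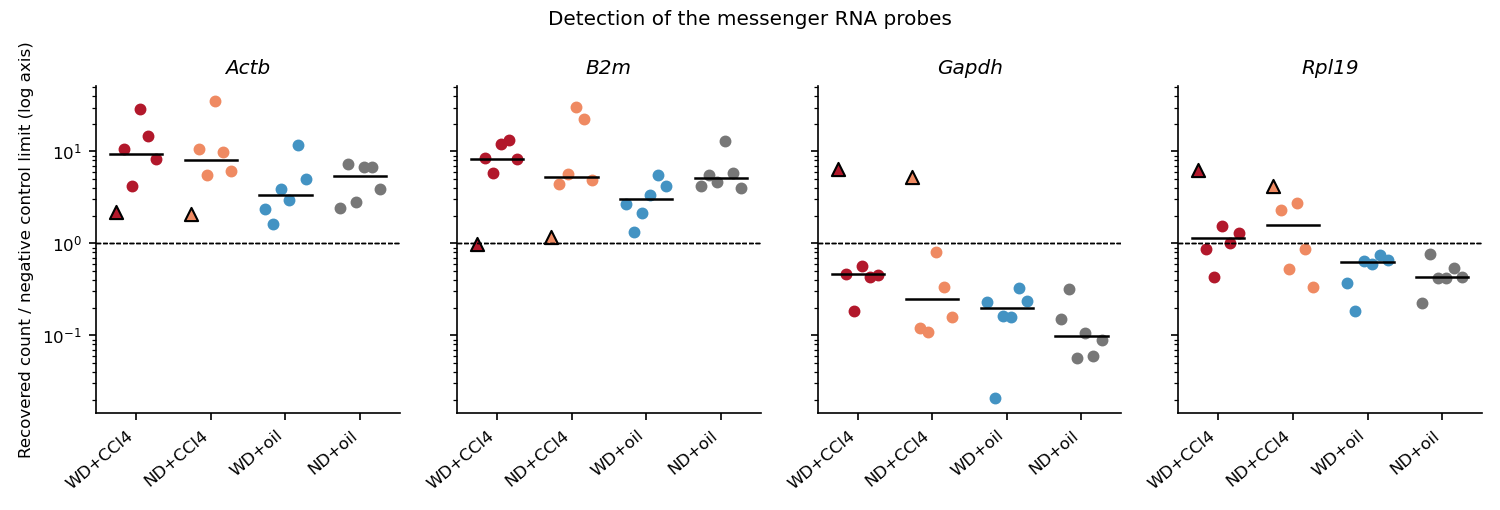
Recovered count of each messenger RNA probe divided by its sample's negative control limit (log axis, no unit), by group. Points are samples, bars are group medians, triangles mark replicate 1 of WD+CCl4 and of ND+CCl4, and the dashed line is the limit. All 24 Actb points lie above the line, whereas 2 Gapdh points do, both of them triangles.

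The detection counts moved little with the limit. With 3 SD, Actb was above it in 24 samples, B2m in 22, Rpl19 in 6 and Gapdh in 2. With the highest negative control as the limit, the numbers were 24, 23, 8 and 2 in the same order of genes. Below the limit a value is background that the sample's factor has multiplied, so the values of Gapdh in 22 samples, and of Rpl19 in 17, have no firm order. Library depth and detection of Rpl19 went together only in part. The medians of its count were 49 in WD+CCl4 and 69.5 in ND+CCl4, against 25.5 in WD+oil and 19 in ND+oil. All 12 oil libraries had totals of at most 265260. ND+CCl4 replicate 2, with a total of 209704, had Rpl19 above the limit (77 counts against 33.1). The other CCl4 samples above it had totals of at least 326431. ND+CCl4 replicate 5, with a total of 1115402, had it below (62 counts against 71.2). The part of depth in the difference in detection was not tested.

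Actb, the cytoskeletal transcript, had deposited values of 36.5 to 933 (median 476) in WD+CCl4, 36.1 to 1344 (median 532) in ND+CCl4, 141 to 631 (median 422) in WD+oil and 279 to 1226 (median 408) in ND+oil. The groups overlapped throughout. The lowest sample of both CCl4 groups was replicate 1, at 36.5 in WD+CCl4 and 36.1 in ND+CCl4, while their next lowest samples had 177 and 386.

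B2m, the class I light chain, had 16.4 to 532 (median 449) in WD+CCl4, 20.3 to 1386 (median 600) in ND+CCl4, 162 to 452 (median 281) in WD+oil and 261 to 934 (median 745) in ND+oil. The WD+oil values lay mostly under those of ND+oil, and the pair overlapped because 2 ND+oil samples had 261 and 291. The lowest CCl4 values were again those of replicate 1.

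Rpl19, the ribosomal protein transcript, had 27.8 to 105 (median 45.2) in WD+CCl4, 22.04 to 144 (median 76.0) in ND+CCl4, 29.0 to 106 (median 42.5) in WD+oil and 24.2 to 131 (median 35.1) in ND+oil. The 4 ranges nearly coincided. Across groups, Rpl19 had a median of 78.1 in replicates 1 to 3 and 30.1 in replicates 4 to 6, whereas its median count was 24 and 32.5.

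Gapdh, the glycolytic transcript, had 9.63 to 107 (median 17.7) in WD+CCl4, 7.49 to 90.6 (median 18.3) in ND+CCl4, 5.72 to 39.0 (median 12.3) in WD+oil and 2.69 to 54.5 (median 8.83) in ND+oil. Its recovered counts were low. They were 234, 15, 8, 27, 21 and 17 in WD+CCl4 replicates 1 to 6 and 228, 4, 5, 50, 24 and 11 in ND+CCl4. WD+oil had 10, 1, 6, 7, 12 and 13, and ND+oil had 6, 10, 2, 5, 2 and 6. Only the 2 libraries that stood apart exceeded 50 counts.

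**Figure D2:**
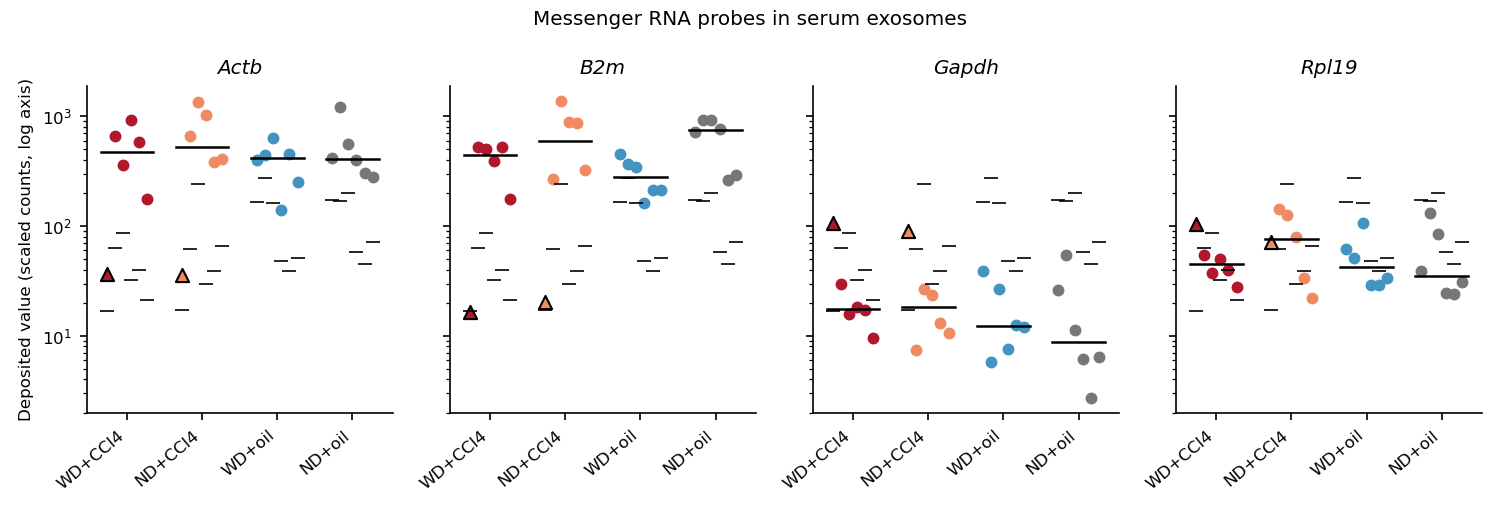
Deposited value of each messenger RNA probe (scaled counts, log axis) by group. Points are samples, long bars are group medians, short black dashes are each sample's negative control limit on the deposited scale, and triangles mark replicate 1 of WD+CCl4 and of ND+CCl4. The triangles are the lowest points for Actb (36.5 and 36.1) and B2m (16.4 and 20.3), and the highest for Gapdh (107 and 90.6).

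By group median, Actb ran ND+CCl4, WD+CCl4, WD+oil, ND+oil from high to low. B2m ran ND+oil, ND+CCl4, WD+CCl4, WD+oil. Rpl19 ran ND+CCl4, WD+CCl4, WD+oil, ND+oil, and Gapdh ran ND+CCl4, WD+CCl4, WD+oil, ND+oil. No neighbours in these orders differed beyond their spread in the tests that follow.

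Group means were compared with limma on log2(deposited value + 1) over the 161 probes that exceeded the limit in at least 6 samples. Those were 158 miRNAs and Actb, B2m and Rpl19. Gapdh was left out by that filter. Rpl19 entered through CCl4 samples alone, since 0 of 12 oil samples had it above the limit, so its differences between CCl4 and oil groups are a description and its calls support nothing. In WD+CCl4 against ND+oil, 0 of the 3 messenger RNAs passed a Benjamini-Hochberg adjusted p of 0.05, where 15.5% of all tested probes did. In ND+CCl4 against ND+oil it was 0 of 3, with 1.24% of all probes called, and in WD+oil against ND+oil 0 of 3, with 10.6% called. The counts were also 0 of 3 in WD+CCl4 against WD+oil (0% called), WD+CCl4 against ND+CCl4 (0.621% called), ND+CCl4 against WD+oil (5.59% called), the interaction of diet and CCl4 (0% called) and the F-test across the 4 groups (10.6% called). At an unadjusted p of 0.05, 0 of 3 passed in each of these 8 comparisons. In the 6 pairs of groups edgeR and DESeq2 on the recovered counts also called 0.

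The standard errors were wide against the differences. Actb averaged 8.27 ± 1.71 in WD+CCl4, 8.71 ± 1.86 in ND+CCl4, 8.45 ± 0.77 in WD+oil and 8.85 ± 0.78 in ND+oil, on the log2(value + 1) scale (SD, n = 6 each). Its log2 differences from ND+oil were -0.58 in WD+CCl4, -0.14 in ND+CCl4 and -0.40 in WD+oil, with an SE of 0.73 and limma adjusted p of 0.607, 0.902 and 0.792.

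B2m had the lowest adjusted p of the 3 in WD+CCl4 and in WD+oil against ND+oil. It averaged 7.88 ± 1.94 in WD+CCl4, 8.47 ± 2.19 in ND+CCl4, 8.11 ± 0.57 in WD+oil and 9.17 ± 0.84 in ND+oil (log2, SD, n = 6 each). Its log2 differences from ND+oil were -1.29 in WD+CCl4, -0.70 in ND+CCl4 and -1.07 in WD+oil, with an SE of 0.82 and limma adjusted p of 0.265, 0.627 and 0.417. The WD+oil value depended on which samples set the spread. With only WD+oil and ND+oil in the fit, the same difference had an SE of 0.37 and a limma adjusted p of 0.0296, in a fit that called 36% of all probes. With all samples but the 2 libraries that stood apart, the SE was 0.42 and the adjusted p 0.0558. With background subtracted as well, a setting chosen after seeing the data, the difference was -1.20 and the adjusted p 0.0382, where 30.4% of all probes were called. In replicates 4 to 6 alone B2m was higher in ND+CCl4 than in WD+oil by 1.69 (limma adjusted p 0.0306), where 17.4% were called.

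Rpl19 averaged 5.62 ± 0.64 in WD+CCl4, 6.06 ± 1.05 in ND+CCl4, 5.56 ± 0.73 in WD+oil and 5.52 ± 0.99 in ND+oil (log2, SD, n = 6 each). Its log2 differences from ND+oil were 0.09 in WD+CCl4, 0.54 in ND+CCl4 and 0.04 in WD+oil, with an SE of 0.49 and limma adjusted p of 0.872, 0.521 and 0.971. Most samples behind these means were below the detection limit. The 12 differences of Actb, B2m and Rpl19 in the remaining pairs and the interaction lay between -0.59 and 0.50, with adjusted p of at least 0.700. Without the filter, Gapdh differed from ND+oil by 0.97 in WD+CCl4, 0.76 in ND+CCl4 and 0.27 in WD+oil, with an SE of 0.64 and limma adjusted p of 0.305, 0.477 and 0.997. That fit tested 570 probes.

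The direction in the CCl4 groups changed with the scaling. On the deposited scale the geometric mean of the 100 most abundant miRNA probes was nearly the same in all samples (coefficient of variation 2.45%). The alternative here scaled the recovered counts by the 6 positive control probes, which are added in known amounts. This moved the median log2 difference of all 161 probes from ND+oil to 1.29 in WD+CCl4 and 1.26 in ND+CCl4, where it was -0.18 and -0.15 on the deposited scale. In WD+oil the median was 0.0037 with that scaling and -0.14 without it. The differences of Actb from ND+oil became 0.89 in WD+CCl4 and 1.27 in ND+CCl4, and those of B2m 0.18 and 0.72, all 4 of opposite sign to the deposited scale. They lay at or below the median shift in 3 of 4 cases, and Actb in ND+CCl4 exceeded it by less than its SE of 0.65.

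Rpl19 lay above that median shift, by less than its SE in WD+CCl4 and by about its SE in ND+CCl4. With positive control scaling it differed from ND+oil by 1.55 in WD+CCl4 and by 1.94 in ND+CCl4 (SE 0.65 each). All 6 ND+oil values behind these differences were below the detection limit. On that scale its values were 18.7 to 282 (median 47.4) in WD+CCl4, 19.9 to 278 (median 84.4) in ND+CCl4, 8.38 to 30.5 (median 24.5) in WD+oil and 10.5 to 26.3 (median 18.05) in ND+oil. The oil samples reached 30.5 at most and overlapped with the low end of the CCl4 samples. Of the 3 messenger RNAs, 0 passed in any pair with positive control scaling, where 9.94% of all probes were called in WD+CCl4 against ND+oil 1.86% in ND+CCl4 against ND+oil, 0.621% in WD+oil against ND+oil and 0% in the remaining pairs. In the F-test it was 0 of 3, with 2.48% called.

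**Figure D3:**
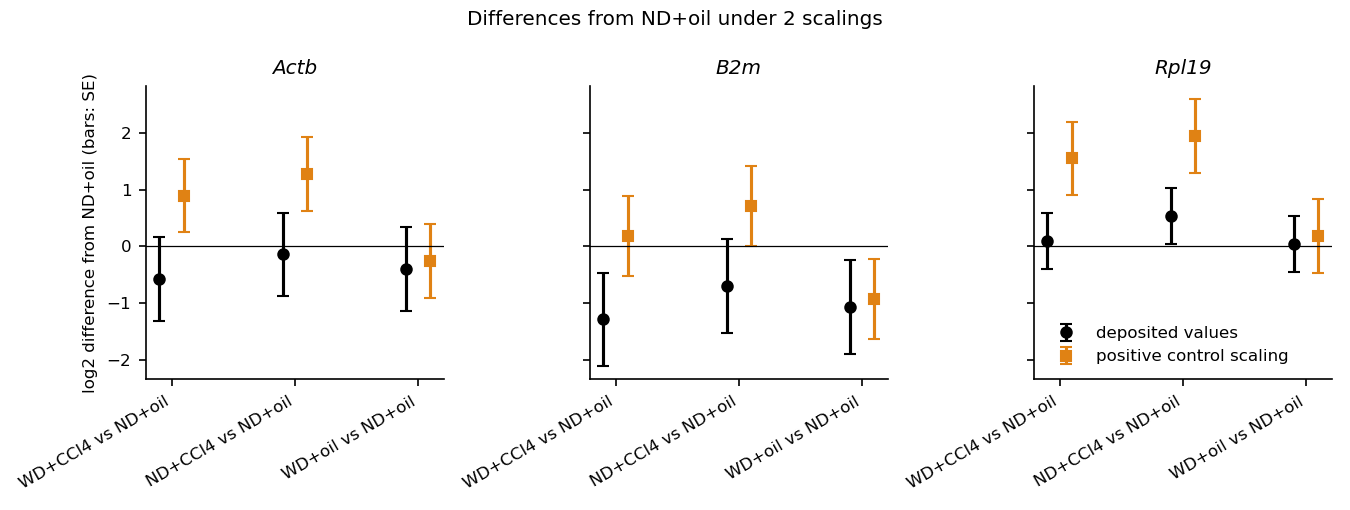
Log2 difference from ND+oil (y axis) of Actb, B2m and Rpl19 in WD+CCl4, ND+CCl4 and WD+oil, for the deposited values (circles) and for recovered counts scaled by the positive controls (squares), with bars of 1 SE. For Actb in ND+CCl4 the circle is at -0.14 and the square at 1.27, while in WD+oil the pair are at -0.40 and -0.26.

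A further fit, chosen after seeing the data, added a term for replicates 1 to 3 against 4 to 6 to positive control scaling. In it ND+CCl4 was higher than WD+oil by 1.53 for Actb (limma adjusted p 0.0214) and 1.64 for B2m (adjusted p 0.0259). These 2 calls stand beside 29.8% of all probes called there, all of them higher, and a median shift of 1.31. In ND+CCl4 against ND+oil neither Actb nor B2m passed, where 9.94% of all probes were called. In the F-test Actb passed (adjusted p 0.0331), among 42.9% of all probes. Rpl19 was below the limit in all 12 oil samples, and its fitted differences there were 1.76 from WD+oil and 1.94 from ND+oil.

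Ratios of 2 messenger RNAs within a sample do not depend on the scaling. B2m over Rpl19 averaged 2.57 ± 0.44 in WD+oil and 3.69 ± 0.77 in ND+oil (log2 of the ratio, SD, n = 6 each), a difference of -1.11 with p = 0.00866 by a two-sided exact permutation test. Adjusted over the 36 ratio comparisons made, that p was 0.312. B2m over Gapdh was lower by 1.40 in WD+oil (4.32 ± 0.88) than in ND+oil (5.72 ± 1.12), with exact p = 0.0411 and adjusted p = 0.442. In WD+CCl4 (3.34 ± 2.98) it was lower than in ND+oil by 2.38, with exact p = 0.0346 and the same adjusted p, and by 1.17 without WD+CCl4 replicate 1 (exact p = 0.0628). None of the 36 passed the adjusted threshold, the smallest p that 6 against 6 samples allow being 0.00216. Rpl19 and Gapdh were below their limits in all 12 oil samples, so these 2 ratios divide by background.

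The 2 libraries that stood apart differed in the ratios of their messenger RNA probes. In log2 units, Actb over Gapdh was -1.55 in WD+CCl4 replicate 1 and -1.33 in ND+CCl4 replicate 1, where Gapdh had the higher count. In WD+oil it lay between 3.35 and 6.29, in ND+oil between 4.0 and 6.82, and in the other CCl4 samples between 4.20 and 6.46. B2m over Gapdh was -2.70 and -2.16 in the 2 libraries, against 4.09 to 6.94 in ND+oil and 3.54 to 6.00 in WD+oil. In the other CCl4 samples it lay between 4.17 and 6.06. Gapdh over Rpl19 was 0.02 and 0.33, while in all 12 oil samples it was at most -0.58, and in the other CCl4 samples -4.27 to -0.90. Gapdh was below its limit in the other 22 libraries, so the ratios there rest on background.

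Against the miRNAs of the same sample, Actb and B2m stood high. A median of 90.3% of the 566 miRNA probes had a lower value than Actb, and 90.1% had a lower value than B2m. For Rpl19 the median was 72.3%, and for Gapdh 45.4%. Between 69 and 213 of the 566 miRNA probes were above the detection limit in a sample, so these shares count mostly undetected probes. In WD+oil replicate 2, with 69 above it, Actb ranked 45 among the miRNAs and B2m 55. In the 2 libraries that stood apart Gapdh stood above Actb and B2m. Actb exceeded 71.2% of miRNA probes in WD+CCl4 replicate 1 and 71.7% in ND+CCl4 replicate 1, B2m exceeded 63.1% and 66.6%, and Gapdh exceeded 81.1% and 80.2%. Rpl19 kept within its usual range there.

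**Figure D4:**
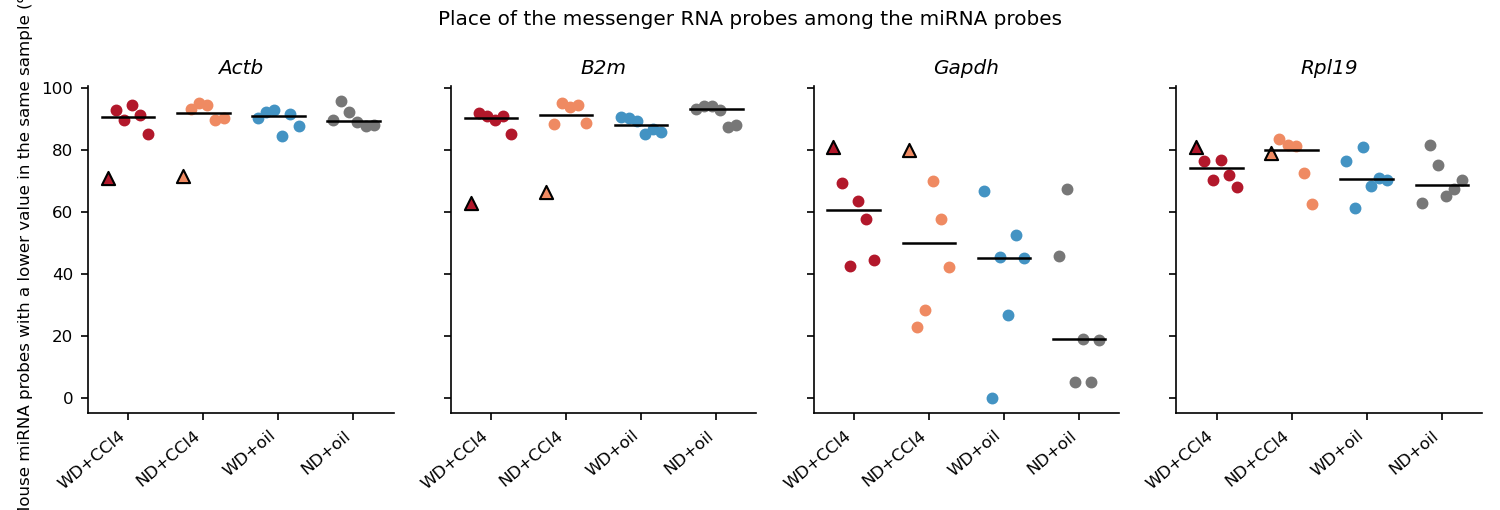
Share of the 566 mouse miRNA probes with a lower value than the messenger RNA probe in the same sample (%), by group. Points are samples, bars are group medians and triangles mark replicate 1 of WD+CCl4 and of ND+CCl4. The triangles are the lowest points for Actb (71.2% and 71.7%) and B2m (63.1% and 66.6%), and the highest for Gapdh (81.1% and 80.2%).

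By group the medians of Actb and B2m lay close together. Actb had medians of 90.6% in WD+CCl4, 91.9% in ND+CCl4, 91.0% in WD+oil and 89.6% in ND+oil. B2m had 90.5%, 91.3%, 88.2% and 93.3% in the same order of groups. Rpl19 had 74.3%, 80.1%, 70.8% and 68.9%. Gapdh, mostly at background, had 60.8%, 50.1%, 45.4% and 19.0%, with a range in WD+oil that ran from 0% to 66.8%.

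Actb and B2m varied together across samples. After removal of group means, their log2 values had Pearson r = 0.90 and Spearman rho = 0.76 over the 24 samples (permutation p adjusted over 6 pairs, 0.00018 and 0.00186). Without the 2 samples farthest from the median of Actb, and with the group means of all 24 samples kept, r was 0.73. Without the 2 libraries that stood apart it was 0.66 with rho 0.56 over 22 samples (adjusted permutation p 0.00355 and 0.0184). Within replicates 1 to 3, r was 0.95 (adjusted permutation p 0.123, n = 12), and within replicates 4 to 6 it was 0.62 (adjusted permutation p 0.072, n = 12).

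Gapdh and Rpl19 were the other pair to pass in all 24 samples, with r = 0.60 and rho = 0.63 (adjusted permutation p 0.0179 and 0.01005). Without the 2 samples farthest from the median of Gapdh, and with the group means of all 24 samples kept, r was 0.43. Within replicates 1 to 3, r was 0.23 (adjusted permutation p 0.723), and within replicates 4 to 6 it was 0.76 (adjusted permutation p 0.0142). Actb with Gapdh had r = -0.22 over 24 samples and 0.65 without the 2 libraries that stood apart, and B2m with Gapdh had -0.28 and 0.68. In the 22 samples 5 of the 6 pairs passed for both r and rho, all of them positive. The scaling factor multiplies all probes of a sample, those at background included. With the factor replaced by positive control scaling, Actb with B2m had r = 0.84 and rho = 0.81 (adjusted permutation p 0.00012 for each), and Gapdh with Rpl19 had r = 0.82 and rho = 0.72 (adjusted permutation p 0.00066 and 0.00261). Positive control factors lay between 0.814 and 1.54, and totals between 42478 and 1496818. Values scaled this way still share their library's depth, so these r cannot separate the transcripts from depth. With background subtracted, Actb with B2m had r = 0.90 (adjusted permutation p 0.00024), and Gapdh with Rpl19 had r = 0.39 (adjusted permutation p 0.111).

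**Figure D5:**
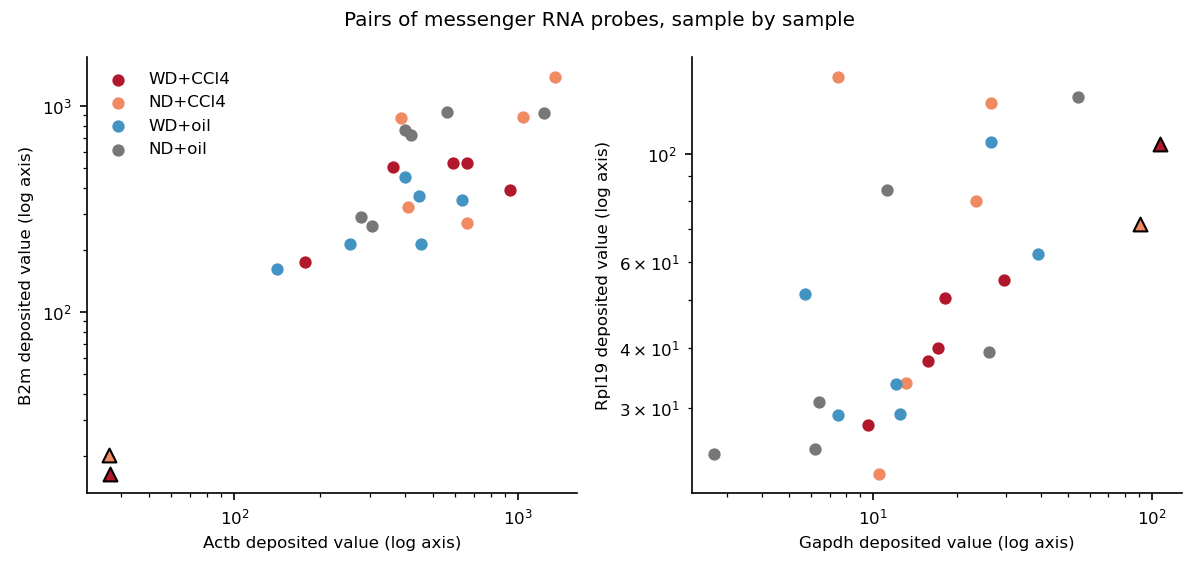
Deposited values (log axes) of Actb against B2m, left, and of Gapdh against Rpl19, right. Each point is a sample coloured by group, and triangles are replicate 1 of WD+CCl4 and of ND+CCl4. The triangles are at the low end for Actb and B2m, and at the right edge for Gapdh, where the other 22 samples reach 54.5.

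The miRNAs most like each messenger RNA were named by Spearman's rho of deviations from group means over 24 samples, among 158 miRNAs above background. The likenesses are a description, and the points share their library and scaling factor. For Actb they were miR-342-3p (0.76), let-7f (0.70) and miR-150 (0.66). For B2m they were miR-326 (0.82), miR-301a (0.72) and let-7f (0.70). For Gapdh they were miR-30c (0.60), miR-1933-5p (0.60) and miR-676 (0.58), and for Rpl19 miR-1933-5p (0.72), miR-125b-5p (0.71) and miR-376b (0.69). Without the 2 libraries that stood apart, miR-326 kept a rho of 0.77 with B2m and miR-342-3p one of 0.61 with Actb. Within replicates 4 to 6 these fell to 0.41 and 0.30. With Actb and B2m, let-7f had 0.85 and 0.86 within replicates 1 to 3, but 0.56 and -0.12 within replicates 4 to 6. With Gapdh and Rpl19, miR-1933-5p had 0.08 and 0.16 within replicates 1 to 3, and 0.42 and 0.47 within replicates 4 to 6.

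The mature sequences of the miRNA at the head of each list, of let-7f, which Actb and B2m share, and of miR-1933-5p, which Gapdh and Rpl19 share are given to show the seeds they carry. They are from RefSeq (GRCm38.p6), written 5′ to 3′, with the seed (bases 2 to 8) in capitals. Where the table gives no arm, the arm that the name usually stands for was taken.
miR-342-3p: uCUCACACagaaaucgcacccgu
let-7f: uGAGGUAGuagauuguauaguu
miR-326: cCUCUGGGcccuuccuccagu
miR-30c: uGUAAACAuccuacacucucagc
miR-1933-5p: aGUCAUGGuguucggucuuaguuu
No 2 of these 5 have the same seed.

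Marker miRNAs of other sources were set beside the 4 probes. Of 24 relations of the probes to 5 such miRNAs and to library depth, 5 passed for both r and rho after adjustment over the 24. Actb was related to miR-150, a lymphocyte miRNA (r = 0.77, adjusted permutation p 0.0151), and inversely to the log2 total count (r = -0.69, adjusted permutation p 0.0104). Deposited values include the factor, which fell from 5.63 for ND+oil replicate 3 (total 42478) to 0.397 for ND+CCl4 replicate 1 (total 1496818). A value scaled in this way is not independent of the total, so that negative r cannot show less Actb in deeper libraries. B2m was related to miR-223 (r = 0.86, adjusted permutation p 0.0151). With miR-142-3p, also a miRNA of platelets and myeloid cells, B2m had r = 0.53 and rho = 0.11 (adjusted permutation p 0.0856 and 0.750) and did not pass. Gapdh and Rpl19 were related to miR-122 (r = 0.69 and 0.57, adjusted permutation p 0.00912 and 0.0151). Leaving out the 2 samples farthest from the median of the messenger RNA gave r of 0.45, -0.56, 0.47, 0.64 and 0.57 for these 5 in that order. The group means of all 24 samples were kept for that and not recomputed.

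Without the 2 libraries that stood apart, 0 of the 24 relations passed for both r and rho. Over those 22 samples r was 0.35 for Actb with miR-150, -0.54 for Actb with the log2 total, 0.26 for B2m with miR-223 and 0.46 for Gapdh with miR-122. B2m with miR-142-3p had r = -0.54 there (adjusted permutation p 0.0834). Rpl19 with miR-122 had r = 0.65 and rho = 0.60 there (adjusted permutation p 0.0278 and 0.0716). Its r fell to 0.16 within replicates 1 to 3 and 0.11 within replicates 4 to 6. With background subtracted in all 24 samples it had r = 0.37 and rho = 0.31 (adjusted permutation p 0.152 and 0.304). Gapdh with miR-122 then had r = 0.66 and rho = 0.37 (adjusted permutation p 0.0630 and 0.304). Within replicates 1 to 3 and within replicates 4 to 6, 0 passed as well. Of the hepatocyte markers, miR-122, miR-192 and miR-148a were each highest in the 2 libraries. Their miR-192 values were 24911 and 19175, against 109 to 4297 elsewhere, and their miR-148a values 40279 and 51812, against 872 to 8700. The red cell miRNA miR-451 had 19016 and 30509 there, against 27083 to 399945 elsewhere. The red cell miRNAs miR-144 (55.7 and 65.1, against 159 to 1680) and miR-486 (802 and 517, against 2577 to 10262) were lowest there. So were the lymphoid miRNAs miR-150 (619 and 514, against 1373 to 8327), miR-342-3p (270 and 168, against 416 to 5351) and miR-181a (32.4 and 27.4, against 123 to 999). Also a lymphoid miRNA, miR-155 was above the limit in 0 of 24 samples. The platelet and myeloid miRNAs miR-142-3p (46.6 and 62.4, against 127 to 866) and miR-126-3p (624 and 371, against 790 to 6087) were lowest there too. With 437 and 876, against 619 to 2874, miR-191 of that list was lowest only in WD+CCl4 replicate 1. The part of these markers in the messenger RNA values was not tested.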

How the data were processed

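Per the labels' protocols, exosomal RNA came from a miRNeasy micro kit and was counted on a NanoString nCounter mouse miRNA panel. For exosome isolation, scaling software and cartridges the sources used here give nothing. The values deposited by the authors are a signal, digital counts scaled by 1 factor per sample, with values under 1 raised to 1 (117 values, 0 of them of the 4 messenger RNAs). Control probes were not scaled. Whole counts were recovered for 100% of values above 1, within 0.05 counts, and the recovery was tested on simulated data. Of the other rows, 39 are neither mouse miRNAs, messenger RNAs, positive or negative controls nor the spike-ins used, and were left out. Tests used limma 3.58.1 in R 4.3.3 with a trend, 4 group means, 24 samples and a pseudocount of 1, adjusted over 161 probes. edgeR 4.0.16 and DESeq2 1.42.0 were run on recovered counts. Total counts limit the precision of low probes. Relations used 100000 permutations. Samples were grouped by their labels. Same-numbered replicates deviated together in 6 of 6 numbers for WD+oil with ND+oil (r 0.335 to 0.742) and for WD+CCl4 with ND+CCl4 (0.289 to 0.850). In each remaining pair of groups at least 1 number had a negative r, down to -0.168, and the highest r was 0.710. All 4 probes were named, and the 3 miRNAs with the highest Spearman's rho for each. The members, gene lists and alternatives were chosen with earlier results of these data known.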

Additional observations from a re-analysis of the deposited data

Results flagged for a closer look

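On the log2(deposited value + 1) scale, 2 values exceeded Dixon's 95% critical value for 6 samples within their groups. Their gaps were 0.653 and 0.676 of the group's range on that log2 scale. The values given next are deposited values, on which the criterion was not computed. Actb in ND+CCl4 replicate 1 was 36.1 (36.142), where the other 5 samples had 386 to 1344. B2m in WD+CCl4 replicate 1 was 16.4 (16.443), where the other 5 had 175 to 532. Both belong to the 2 libraries with the highest miRNA totals. Of 16 groups of values examined these 2 exceeded the criterion, and chance gives about 1 in 20.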

How the results depend on the processing

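Leaving out each sample, all 8 comparisons kept 0 messenger RNAs past the threshold. Calls appeared in 4 settings. WD+oil against ND+oil had 1 (B2m) with only the groups compared, where 36% of all tested probes were called. It had 1 (B2m, -1.20) with background subtracted and both libraries that stood apart left out, where 30.4% were called. ND+CCl4 against WD+oil had 1 (B2m) in replicates 4 to 6 alone (17.4% called). Positive control scaling with a term for the sets gave 3 there (29.8% called). That setting gave 1 in ND+CCl4 against ND+oil (9.94% called) and 2 in the F-test (Actb and Rpl19, 42.9% called). Rpl19, among these calls, was below the detection limit in all oil samples. The 3 settings that pair 2 choices were chosen after seeing the data. The replicate block changed no messenger RNA call (B2m in WD+oil against ND+oil -1.07, adjusted p 0.294). The other pseudocounts, no filter, and a term for the sets alone changed no call and no direction of a difference from ND+oil.

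Differences from ND+oil that did not pass changed sign as follows. Actb in ND+CCl4 was 0.31 by edgeR, 0.48 by DESeq2, 0.048 with median centring, 1.25 with spike-in scaling, 1.27 with positive control scaling (with and without the term for the sets), 1.61 with it and without both libraries that stood apart, 0.55 on the deposited scale without them, 0.63 with background subtracted as well, and 0.76 in replicates 4 to 6. B2m in ND+CCl4 was, in those settings, 0.15 by DESeq2, 0.70 with spike-ins, 0.72 and 1.17 with positive controls, 0.12 and 0.14 without the 2 libraries, and 0.70 in replicates 4 to 6. Actb in WD+CCl4 was 0.038 by DESeq2, 0.86 with spike-ins, 0.89 and 1.25 with positive controls, 0.029 and 0.095 without the 2 libraries, and 0.51 in replicates 4 to 6. B2m in WD+CCl4 was 0.14 with spike-ins and 0.18 and 0.68 with positive controls. Rpl19 in WD+CCl4 was -0.13 without the 2 libraries, -0.011 with the haemolysis term, -0.33 in replicates 1 to 3 and -0.16 with total miRNA scaling. Rpl19 in WD+oil was -0.076 by edgeR, -0.12 with the haemolysis term, -0.12 in replicates 1 to 3 and -0.065 with total miRNA scaling.

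Leaving out each sample gave ranges of -0.48 to 0.55 for Actb in ND+CCl4, -0.90 to 0.029 for Actb in WD+CCl4, -1.09 to 0.12 for B2m in ND+CCl4, -0.13 to 0.40 for Rpl19 in WD+CCl4 and -0.19 to 0.34 for Rpl19 in WD+oil, with adjusted p of at least 0.419. Over all 21 differences, 108 of 921 alternative values changed sign. The cause was not tested.

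Of the 6 relations between probes, 5 passed without the 2 libraries, 0 in replicates 1 to 3, 1 in replicates 4 to 6 and 1 with background subtracted. Of the 24 to markers and depth, 0 passed without the 2 libraries or within either set of replicates, and 3 with background subtracted. Gapdh with miR-122 and Rpl19 with miR-122 were not among those 3. Signs turned for B2m with Rpl19 (-0.27 with background subtracted, -0.19 with positive controls, -0.079 in replicates 1 to 3), Actb with Gapdh (0.65 without the 2 libraries, 0.77 in replicates 4 to 6), B2m with Gapdh (0.68 and 0.71) and B2m with miR-223 (-0.086 in replicates 4 to 6). Gapdh was below its negative control limit in 22 samples and Rpl19 in 17, and differences between such values were not detectable.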
